A study of Saccharomyces cerevisiae and Saccharomyces cerevisiae S288C with 30 samples.

Results

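FMP45 and YNL194C are paralogous genes of budding yeast, Saccharomyces cerevisiae, and each held 1 intron among the 405 splicing events of the deposited RNA-seq table. Both introns belonged to the 98 unannotated introns of that table, beside 279 annotated introns and 28 alternative splice site events. They were picked by gene, taking every event of either gene in all 26 RNA-seq libraries, with measured values of these introns already known. The values below are therefore a description, with errors and without tests.

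Fmp45 and Ynl194c are membrane proteins of the Sur7 family. They reside in the plasma membrane compartment that overlies eisosomes, the furrow-like protein and lipid domains built on Pil1 and Lsp1, and loss of Sur7 family members is known to disturb sporulation and membrane sphingolipids. An intron is removed from pre-mRNA as a lariat, which the enzyme Dbr1 opens, and unspliced or misspliced transcripts that carry an early stop codon can be degraded through Upf1. The label "eisosome-related" could not be checked here, because a splicing ratio carries no information on where a protein resides.

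The 26 libraries fell into 13 groups of 2 biological replicates, in 2 preparations. The TruSeq libraries, marked as poly(A) RNA in the table's header, came from upf1_null, dbr1_null and WT cells in log phase in YPD, with S288C given as the organism's strain. The Ribo-Zero libraries, of RNA with the ribosomal RNA removed, came from SK1 cells kept in sporulation medium for 0, 3, 6, 7.5, 8.5 and 12 h, an SK1 culture labelled sk1, and S288c cultures labelled dbr1, +rap and -rap. The labels say neither what medium the last 4 groups grew in nor what +rap and -rap mean, and they do not say whether the sporulation times were drawn from the same cultures. The dbr1 and sk1 cultures have no control of their own and were set against -rap, so effects of genotype or strain and of culture conditions cannot be told apart there. The measure was PSI, a fraction between 0 and 1 given to 2 decimals. A PSI near 1 is read here as the intron being present in nearly all transcripts and a low PSI as more splicing, since annotated introns had a median PSI of 0.213 in TruSeq WT and unannotated ones 0.98. The read counts behind PSI are unknown, although the sheet's title names a minimum of 50 without saying of what. TruSeq libraries held a value for 384 to 394 events and Ribo-Zero libraries for 231 to 374, while both introns described here had a value in every library. In bulk cultures more splicing in every cell and more cells that splice cannot be told apart. Both introns described here span nearly all of their own gene, so transcripts of that gene alone could also raise PSI. A change in splicing and a change in the amount of such transcripts cannot be told apart here. Transcript levels were not analysed.

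The introns of both paralogs sat at matching places. The FMP45 intron (sacCer3 chromosome IV, 60479 to 61787, minus strand) was 1309 nt long, and the YNL194C intron (chromosome XIV, 272388 to 273601, minus strand) was 1214 nt long. FMP45 (YDL222C) is annotated at 60872 to 61801 and YNL194C at 272710 to 273615, each as a reading frame without introns. In both genes the 5′ splice site lay exactly 14 nt into the reading frame. The introns took in the remaining 916 of 930 nt of FMP45 and 892 of 906 nt of YNL194C, 98.5% of each frame, and ran 393 nt past the end of FMP45 and 322 nt past the end of YNL194C. Each intron thus held all but the first codons of its gene, the stop codon included.

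Both 3′ splice sites fell just upstream of a second gene on the same strand. The FMP45 intron ended 73 nt before HBT1 (YDL223C, 57265 to 60405), which encodes a protein of the mating projection tip and a target of the ubiquitin-like Hub1. The YNL194C intron ended 79 nt before YNL195C (271523 to 272308), the paralog of HBT1. After removal of the intron the start codon of FMP45 would lie 87 nt before that of HBT1, and the start codon of YNL194C 93 nt before that of YNL195C. Both distances are multiples of 3, at 29 and 31 codons, so that the first start codon would be in register with the second gene. Whether stop codons lie between them was not analysed here, as no genome sequence was used. The counting of splice positions was checked on single-intron genes whose annotated intron lies inside the reading frame. In 260 of 262 the coding length without the intron was a multiple of 3. That check covers how coordinates are counted, and not the junctions of the unannotated introns, whose exactness was not tested.

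**Figure D1:**
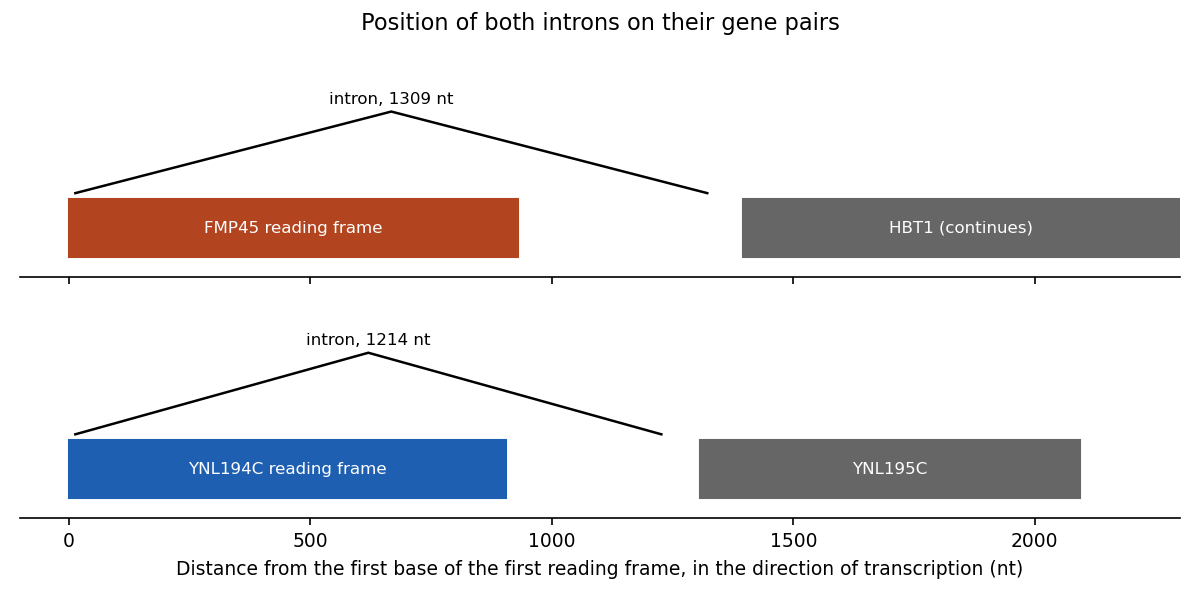
Map of both gene pairs, drawn to scale against the distance in nt from the first base of FMP45 or YNL194C in the direction of transcription. Boxes are annotated reading frames and the bent line spans the intron, which begins 14 nt into the first frame and ends 73 nt before HBT1 or 79 nt before YNL195C; HBT1 is longer than the axis.

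Few events of the table had this form. Of 98 unannotated introns 31 began inside an annotated reading frame on their own strand, and in 5 of these the intron ended past that frame. Besides FMP45 and YNL194C these were introns of IDP3, RPS16B and MIN10, whose 5′ splice sites lay 1246, 716 and 246 nt into the frame. The RPS16B values of 716 nt here and 4851 nt below count its annotated intron of 432 nt, which begins 24 nt into the frame. The MIN10 intron ended 3 nt before RPL29, whereas those of IDP3 and RPS16B ended 3654 and 4135 nt before the next frame of the same strand. The start-to-start distance was a multiple of 3 in 4 of these 5 introns, in those of RPS16B (4851 nt) and MIN10 (249 nt) as well as in FMP45 and YNL194C. None of the 279 annotated introns had the form, and the longest of them was 1002 nt. Over all events 6 had it, the remaining one being an alternative 3′ splice site event of RPS16B. That event, 960 nt long, began 24 nt into the frame, near its start as in FMP45 and YNL194C, and ended 120 nt past it. It ended 4135 nt before the next frame, and its start-to-start distance of 4159 nt was not a multiple of 3. By length the FMP45 and YNL194C introns ranked 9th and 10th among unannotated introns, behind 8 of over 9000 nt in the ribosomal DNA region of chromosome XII.

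No lariat of either intron was found by gene name in Branch-seq or by position in Lariat-seq. Branch-seq, which maps branch points from opened lariats, gave 466 annotated and unannotated branch points in 3 pooled gel fractions, and 0 of these named FMP45, YNL194C, HBT1 or YNL195C. Of the same branch points 115 carried no gene name and, being given on sacCer2, were not placed on these introns. Lariat-seq listed 58 lariat junctions, and 0 lay within 200 nt of either intron. Both assays used growing cultures and their detection limit for single introns is unknown.

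During sporulation the FMP45 intron went through a wide low phase. Its PSI in the 2 replicates was 0.94 and 0.92 at 0 h, 0.48 and 0.35 at 3 h, 0.39 and 0.39 at 6 h, 0.35 and 0.34 at 7.5 h, 0.5 and 0.45 at 8.5 h, and 0.96 and 0.97 at 12 h. All 8 libraries from 3 to 8.5 h thus lay at or below 0.5, and all 4 libraries of 0 and 12 h at or above 0.92. The mean at 7.5 h was 0.345 ± 0.00707 against 0.93 ± 0.0141 at 0 h (SD, n = 2 each). That is a difference of −0.585 with an SE of 0.0758, where the SE rests on the spread between replicates over all 10 Ribo-Zero groups.

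The YNL194C intron went lower later and less far. Its PSI was 0.87 and 0.7 at 0 h, 0.88 and 0.9 at 3 h, 0.62 and 0.64 at 6 h, 0.5 and 0.39 at 7.5 h, 0.54 and 0.62 at 8.5 h, and 0.97 and 0.98 at 12 h. At 3 h it had not yet gone lower and both libraries lay above those of 0 h. Both introns had their lowest mean at 7.5 h, where YNL194C stood at 0.445 ± 0.0778 against 0.785 ± 0.12 at 0 h (SD, n = 2 each), a difference of −0.34 with an SE of 0.0591. Its 0 h replicates were 0.17 apart, the widest gap of this intron in any Ribo-Zero group. Without 0 h replicate 1 the YNL194C differences to 0 h became 0.19 at 3 h, −0.07 at 6 h, −0.255 at 7.5 h, −0.12 at 8.5 h and 0.275 at 12 h. Without 0 h replicate 2 they became 0.02, −0.24, −0.425, −0.29 and 0.105 at the same times.

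**Figure D2:**
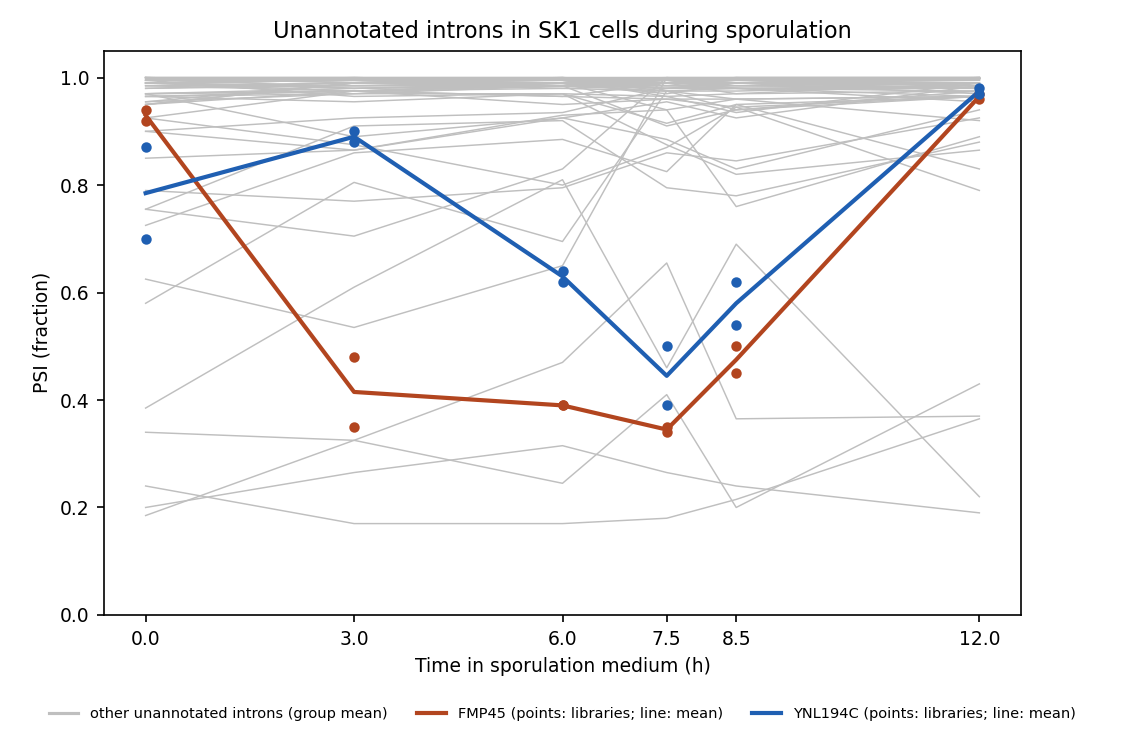
PSI of unannotated introns against hours in sporulation medium in SK1 cells. Points are single libraries and coloured lines group means of FMP45 and YNL194C, and grey lines are group means of the other unannotated introns with both values at all 6 times; the FMP45 means lie below 0.5 from 3 to 8.5 h and YNL194C lies below its 0 h values from 6 to 8.5 h, with both near 1 at 12 h.

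The steps between neighbouring times show where the introns parted. From 0 to 3 h the FMP45 difference was −0.515 (SE 0.0758) and the YNL194C difference 0.105 (SE 0.0591). Between 3 and 6 h FMP45 moved by −0.025, with overlapping replicates, and YNL194C by −0.26. Between 6 and 7.5 h the differences were −0.045 for FMP45, under its SE, and −0.185 for YNL194C. After 7.5 h the introns went together, with 0.13 for FMP45 and 0.135 for YNL194C by 8.5 h and a further 0.49 and 0.395 by 12 h. Within libraries FMP45 had the lower PSI in 23 of 26 cases, with a mean difference to YNL194C of −0.475 at 3 h and −0.01 at 12 h. The exceptions were both 0 h libraries and dbr1 replicate 2.

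The differences from 0 h were also set beside those of the other events. The FMP45 groups did not overlap those of 0 h at 3, 6, 7.5 and 8.5 h, where FMP45 was lower, and 29.3%, 42.5%, 39.0% and 36.9% of all events with 4 values were lower without overlap at those times. YNL194C was lower without overlap at 6, 7.5 and 8.5 h. It was higher without overlap at 3 h, as were 11.8% of all events, and at 6, 7.5 and 8.5 h 15.4%, 23.3% and 28.4% of all events were higher. At 12 h both introns were higher than at 0 h without overlap, FMP45 by 0.035, which is less than its SE of 0.0758, and YNL194C by 0.19 (SE 0.0591), where 36.7% of all events were higher and 22.1% lower. Since the introns were chosen with these values known, nothing is read from the counts. By size, the FMP45 difference at 7.5 h was the most negative of 73 unannotated introns and the YNL194C difference ranked 4 from that end, and the median over those introns was 0. At 3 h FMP45 had the second most negative difference of 80, and at 6 h the most negative of 84, with YNL194C at rank 3. Over all events, annotated introns included, FMP45 ranked 4 of 287 from the negative end at 3 h and 2 of 299, 210 and 176 at 6, 7.5 and 8.5 h, whereas YNL194C ranked 37, 8 and 21 at the last 3 of these times. The FMP45 difference at 12 h ranked 111 of 267 from the positive end.

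The low phase with a return at 12 h was also counted over other introns, with the pattern and its times taken from FMP45 and YNL194C after their values had been seen. Of 67 unannotated introns with both values at all 6 times, 8 had all 3 group means at 6, 7.5 and 8.5 h below both the 0 h and the 12 h mean. The gap between the higher edge of the low phase and the lower of both end points was 0.455 for FMP45, 0.155 for YNL194C and 0.025 for the next one, an intron of LDO45. Over all events with both values at all times 29 of 159 had the same course, and among annotated introns 21 of 77. In 4 of these annotated introns the gap was wider than that of YNL194C. These were introns of SPO1, a phospholipase-like protein of meiosis (gap 0.54), IWR1 (0.215), RPS14B (0.195) and RPL33B (0.16), the last 2 of ribosomal proteins. The SPO1 means were 0.925 at 0 h, 0.335 at 7.5 h and 0.905 at 12 h, and its gap also exceeded that of FMP45. At 7.5 h 8 of 76 unannotated introns had a mean PSI below 0.5, FMP45 and YNL194C included, and the median was 0.98.

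Outside sporulation FMP45 had an intermediate PSI in several cultures, while the PSI of YNL194C was mostly nearer 1. In the SK1 culture labelled sk1, FMP45 stood at 0.69 in both libraries and YNL194C at 0.9 and 0.79. Cells at 0 h in sporulation medium, also SK1, had a higher FMP45 PSI than sk1 without overlap, by 0.24 (SE 0.0758), as did 42.7% of all events, with 15.4% lower. The YNL194C difference was −0.06 (SE 0.0591) with overlapping replicates. The FMP45 difference was the second largest over 78 unannotated introns and ranked 25 over all 293 events.

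The strain comparison gave no separation. For sk1 against the S288c -rap culture, FMP45 was at 0.69 and 0.69 in sk1 and 0.8 and 0.65 in -rap, a difference of −0.035 (SE 0.0758). YNL194C was at 0.9 and 0.79 in sk1 and 0.88 and 0.94 in -rap, a difference of −0.065 (SE 0.0591). Neither intron's groups were apart, while 33.7% of all events were lower in sk1 without overlap and 8.16% higher.

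The replicates also overlapped for both introns in the S288c culture labelled dbr1. FMP45 was at 0.78 and 0.92 in dbr1 and at 0.8 and 0.65 in -rap, a difference of 0.125 (SE 0.0758), and YNL194C was at 0.93 and 0.86 in dbr1 and at 0.88 and 0.94 in -rap, a difference of −0.015 (SE 0.0591). Over all events 54.9% were higher in dbr1 without overlap and 5.64% lower. The median PSI of annotated introns was 0.895 in dbr1 and 0.213 in -rap, and that of unannotated introns 0.99 in dbr1 and 0.985 in -rap.

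Under +rap the replicates of FMP45 were 0.96 and 0.73, against 0.8 and 0.65 in -rap, and overlapped. The difference was 0.12 (SE 0.0758), and the gap of 0.23 between the +rap replicates was the widest of this intron in the Ribo-Zero groups. Without +rap replicate 1 the difference became 0.005 and without +rap replicate 2 0.235. YNL194C was at 0.98 and 0.95 under +rap and at 0.88 and 0.94 in -rap, higher without overlap by 0.055 (SE 0.0591), as were 35.9% of all events. That difference was smaller than its SE, and became 0.025 without -rap replicate 1 and 0.085 without -rap replicate 2.

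**Figure D3:**
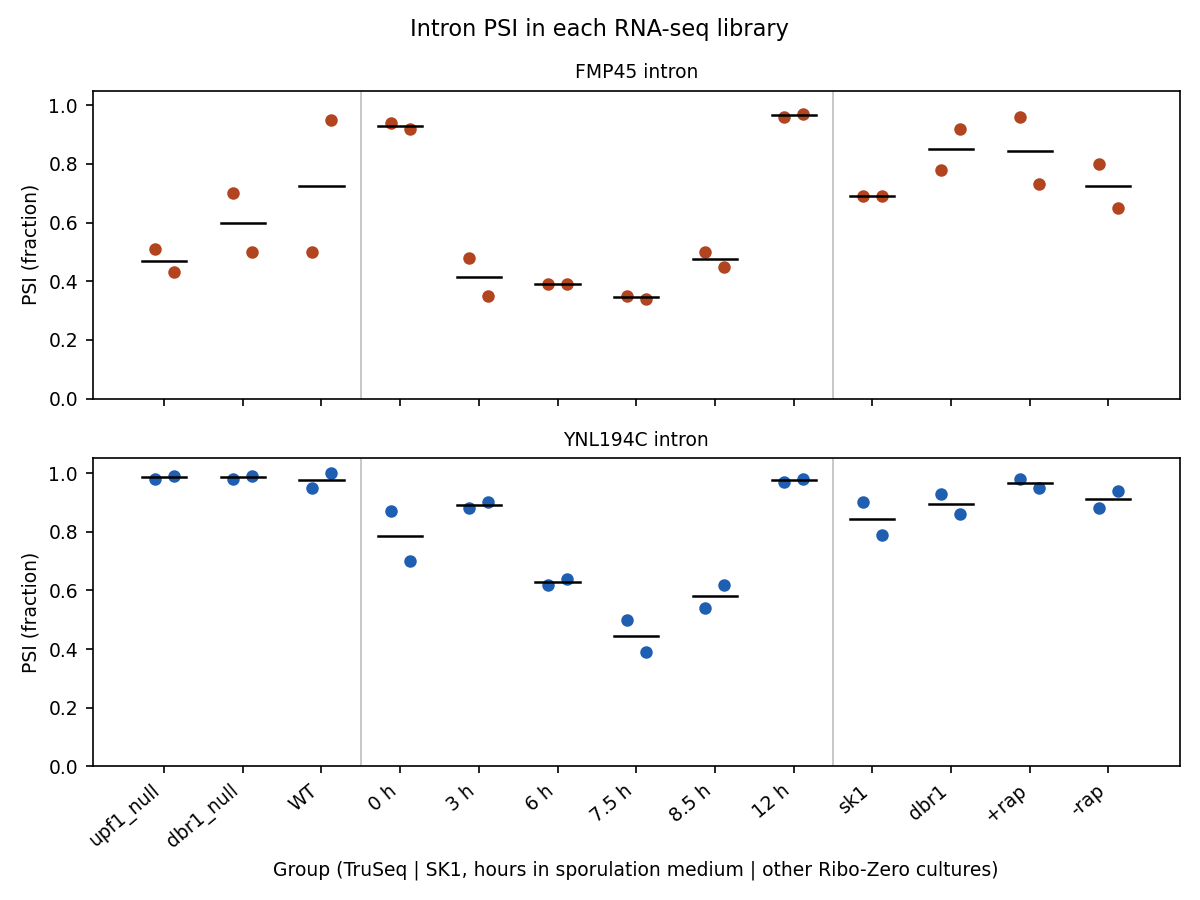
PSI of the FMP45 intron (top) and the YNL194C intron (bottom) in each of the 26 libraries, by group, with points for libraries and bars for group means. In the sporulation series FMP45 is at or below 0.5 from 3 to 8.5 h and YNL194C below its 0 h values from 6 to 8.5 h; FMP45 is also low in TruSeq upf1_null (0.51 and 0.43), and its TruSeq WT replicates stand at 0.5 and 0.95.

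In the TruSeq libraries FMP45 was low in some and YNL194C in none. FMP45 was at 0.51 and 0.43 in upf1_null, at 0.7 and 0.5 in dbr1_null, and at 0.5 and 0.95 in WT. The WT replicates overlap those of both mutants, so no direction can be given for FMP45 in either. The difference was −0.255 (SE 0.204) for upf1_null minus WT and −0.125 (SE 0.204) for dbr1_null minus WT. Without WT replicate 1 these became −0.48 and −0.35, and without WT replicate 2 −0.03 and 0.1.

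YNL194C stayed near 1 in all 6 TruSeq libraries, at 0.98 and 0.99 in upf1_null, 0.98 and 0.99 in dbr1_null, and 0.95 and 1 in WT. Both mutants differed from WT by 0.01 (SE 0.0212), 1 step of the table, with overlapping replicates. Over all events 45.0% were higher and 6.28% lower in upf1_null without overlap, and 35.0% higher and 3.98% lower in dbr1_null. In every TruSeq library the PSI of FMP45 was below that of YNL194C, with a mean difference of −0.515 in upf1_null, −0.385 in dbr1_null and −0.25 in WT.

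**Figure D4:**
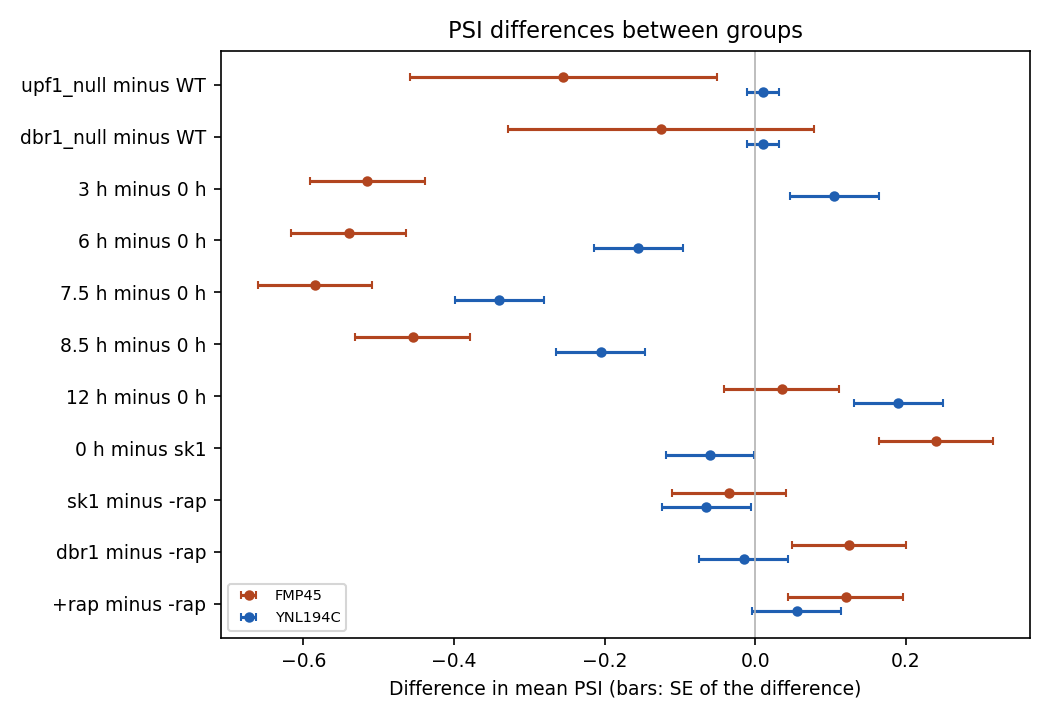
Differences in mean PSI for FMP45 and YNL194C in each of the 11 comparisons, with the SE of the difference as bars. FMP45 lies between −0.585 and −0.455 from 3 to 8.5 h against 0 h, and YNL194C between −0.34 and −0.155 from 6 to 8.5 h.

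Ordered by group mean within the Ribo-Zero libraries, FMP45 was lowest at 7.5 h, followed by 6, 3 and 8.5 h, of which 6 and 3 h overlapped, as did 3 and 8.5 h. The sk1, -rap, +rap, dbr1 and 0 h groups came next, each overlapping its neighbour, and 12 h was highest. For YNL194C the order was 7.5, 8.5 and 6 h, the last 2 overlapping, then 0 h, sk1, 3 h, dbr1 and -rap in an unbroken chain of overlaps, and +rap and 12 h, which overlapped. The span from the lowest to the highest Ribo-Zero group was 0.62 for FMP45 and 0.53 for YNL194C, which ranked 4 and 5 among 60 unannotated introns with values in all 10 groups. The pooled SD between replicates was 0.0758 for FMP45 and 0.0591 for YNL194C.

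Across the group means FMP45 and YNL194C had a Pearson r of 0.558 over all 13 groups and 0.735 over the 10 Ribo-Zero groups, a description over groups that share kits and strains. By this measure 30 other events, of 335 with enough values, were closer to FMP45 than its paralog was, and 51 of 335 were closer to YNL194C than FMP45 was. The 5 closest were annotated introns of MAY24 (r = 0.901 over 9 groups), MAF1, a repressor of RNA polymerase III (0.866 over 8), NCB2, a transcription regulator subunit (0.791 over 11), HNT2, a nucleotide hydrolase (0.786 over 8), and VPS75, a histone chaperone (0.77 over 8). For YNL194C the 5 closest were introns of LDS2, a spore wall gene (0.946 over 8 groups), SPT14, of membrane anchor synthesis (0.916 over 9, but 0.477 as Spearman's rho), IWR1, an importer of RNA polymerase II (0.875 over 12), and IAI11 (0.843 over 8), and an unannotated intron of GCR1, the activator of glycolytic genes (0.878 over 12). None of these 10 introns had values in all 13 groups, so each r leaves out some groups that FMP45 and YNL194C cover. None of the 5 closest to FMP45 had a group mean at both 0 h and 7.5 h, so their r values leave out that contrast. Of the 5 closest to YNL194C only the introns of GCR1 and IWR1 had both. The counts of 30 and 51 likewise set r values over unlike sets of groups side by side.

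Of 21 genes listed for eisosomes and the membrane above them, with SUR7, PIL1, LSP1, NCE102 and the permease gene CAN1 among them, all were found in the reference annotation. FMP45 and YNL194C were the 2 with an event in the splicing table, so the pathway has no further intron to describe here.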

How the data were processed

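Reads of 26 RNA-seq libraries were aligned by the authors to sacCer3 with TopHat2 and Bowtie, per the submitters' processing notes, which name TopHat2 2.0.0, Cufflinks 2.2.1 and Cuffdiff for TruSeq. The deposited PSI values are a fraction per event and library. How PSI was computed is not given in the sources used here; the sheet's title names removal of the mitochondrial chromosome, on which 0 events lay, and a minimum of 50 of an unstated quantity. Deposited Branch-seq values are CPM of 3 pooled fractions on sacCer2 (Bowtie 1.0.0, SAMtools 0.1.7a) and were searched by gene name. The deposited Lariat-seq positions, of another kind of unit, are on sacCer3 and were searched by coordinate.

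Introns were placed on RefSeq R64 reading frames, with the strand taken from the systematic gene name. Differences and SEs came from least squares on the library values with a mean for each group. The fit was made event by event over all libraries of a preparation (numpy 2.4.6, Python 3.11.15) and tested on simulated data. Groups do not overlap where the lowest value of one exceeds the highest of the other. Likeness was Pearson's r over group means, for at least 8 shared groups, and the 5 highest per intron were named, with every event of the listed eisosome genes. Members and lists were chosen with earlier results of these data known. Alternatives were leaving out each library, log2 odds, a replicate term, Spearman's rho, Ribo-Zero groups alone and event classes. No nucleotide sequence was used. PSI depth is unknown, so no counting interval is given.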

Additional observations from a re-analysis of the deposited data

How the results depend on the processing

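The FMP45 differences between 3, 6, 7.5 or 8.5 h and 0 h kept their sign under every alternative run, and on the PSI scale moved by less than 1 replicate SD. Those of YNL194C against 0 h kept their sign, but rested on the 0 h replicates: leaving out each library gave 0.02 to 0.19 at 3 h, −0.24 to −0.07 at 6 h, −0.425 to −0.255 at 7.5 h, −0.29 to −0.12 at 8.5 h and 0.105 to 0.275 at 12 h, and −0.145 to 0.025 for 0 h minus sk1, whose sign turned to 0.025 without 0 h replicate 2. For YNL194C both mutants minus WT ranged from −0.015 to 0.035, at −0.015 without WT replicate 1, and dbr1 minus -rap from −0.05 to 0.02, at 0.02 without dbr1 replicate 2 and 0.015 without -rap replicate 2. For FMP45 the ranges were −0.48 to −0.03 (upf1_null minus WT), −0.35 to 0.1 (dbr1_null minus WT, 0.1 without WT replicate 2), −0.11 to 0.04 (sk1 minus -rap, 0.04 without -rap replicate 1) and 0.005 to 0.235 (+rap minus -rap). Causes were not tested. With log2 odds at an offset of 0.01 or 0.05 all 22 differences kept their sign. Deviations of same-numbered libraries correlated between −0.361 and 0.345 over events, with no common sign over the 11 comparisons. Pairing by replicate number in single comparisons is not excluded by this. With a replicate block the differences were identical, such as −0.585 at 7.5 h for FMP45, with an SE of 0.0729.

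The share of events lower without overlap than at 0 h was 39.8% of annotated and 12.5% of unannotated introns at 3 h, 53.2% and 22.6% at 6 h, and 26.0% and 25.4% of unannotated introns at 7.5 and 8.5 h. The share higher was 17.5% of unannotated introns at 3 h, 45.3% of annotated and 26.7% of unannotated introns at 12 h, 56.4% and 21.8% for 0 h minus sk1, and 49.5% and 15.1% for +rap minus -rap. The likeness of FMP45 to YNL194C was 0.361 as Spearman's rho, and that of SPT14 to YNL194C 0.477.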
